A study of Gossypium hirsutum with 2 samples.

Results

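GDSL lipases and esterases were followed in 2 RNA libraries of upland cotton (Gossypium hirsutum). The members were chosen by the word GDSL in the annotation text of a unigene, that is, an assembled transcript sequence with a number for a name. The rule found 101 of the 136262 unigenes present in at least 1 of the 2 tables. The first library, WT fiber, came from fiber of the wild-type cultivar Xuzhou142 at 10 days post anthesis. The second, FL ovule, came from ovule of XZ142FLM at the same age. That line has the genotype li3li3n2n2, and its seeds carry neither fuzz nor lint and form almost no fiber. Both lines were raised in a greenhouse under long days. The libraries are called fiber and ovule from here on. Each group was 1 library, so no difference below has a replicate check, and tissue and genotype cannot be told apart.

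GDSL enzymes are serine hydrolases named for the Gly-Asp-Ser-Leu motif around the catalytic serine. They form one of the largest lipase families of plants, most carry a signal for secretion, and they cleave or transfer ester bonds in lipids, cutin and acetylated wall polysaccharides. In tomato, a GDSL enzyme joins cutin monomers in the cuticle. In rice, other members remove acetyl groups from wall xylan, and in Arabidopsis GLIP1 acts in defence against a fungal pathogen. A cotton fiber is a single seed coat epidermal cell that elongates greatly, builds primary wall and extends its cuticle as it grows, whereas an ovule also holds the other seed coat layers, endosperm and embryo.

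The fiber library had 45.6 M reads and the ovule library 53.4 M reads. Levels are RPKM, read counts divided by unigene length and library total, as deposited. Ratios are log2((RPKM in fiber + 1) / (RPKM in ovule + 1)), which understates the difference of low unigenes. Calls of at least 2-fold or within 2-fold used this ratio with its pseudocount of 1 RPKM. A scarce unigene called within 2-fold can therefore differ by more than 2-fold in RPKM. Folds are ratios of RPKM without that pseudocount, with 95% intervals by the exact method of Clopper and Pearson, which cover counting error only and are too narrow because reads without molecular identifiers are not independent. The labelled tissues were checked against marker texts. Of 59 measured unigenes named for fiber proteins, 28 were at least 2-fold higher in fiber and 2 in ovule, and of 188 measured with texts of dividing cells, histones and cyclins, 18 and 90 were. The histones among them, a subset picked after the values had been seen, numbered 72, with 1 and 50. Of 83 measured with embryo and endosperm texts, 18 were at least 2-fold higher in fiber and 33 in ovule, with sums of 1229 and 1483 RPKM, but that pattern also caught immunoglobulin-like and lipid transfer texts. Its vicilin, legumin and oleosin texts, picked after the values had been seen, had 1 and 9 of 16, with sums of 57.8 and 82.0 RPKM, and 62.5% of the fiber sum lay in 1 unigene. Of 85 measured with photosynthesis texts, 10 passed 2-fold towards fiber and 19 towards ovule. The sums of that list went the other way, at 1239 RPKM in fiber and 806 RPKM in ovule. Of its fiber sum, 49.8% lay in 1 unigene. For comparison with all these marker counts, 10.5% of all 63258 measured passed 2-fold towards fiber and 15.3% towards ovule. The part of these other cells in the GDSL values was not tested. In such bulk samples, fewer cells of a type and less RNA per cell cannot be told apart.

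The family as a whole took more of the fiber library. Summed over all 101 members, RPKM was 3436 in fiber and 534 in ovule, a ratio of 6.43. Of the reads, 0.437% fell on members in fiber and 0.0606% in ovule. Under the other scalings the ratio of the sums was between 5.02 and 9.93. The sum in fiber was carried by few sequences: the 2 most abundant members made up 52.2% of it and the 10 most abundant 89.7%. Without those 2 the sums were 1643 and 488 RPKM, a ratio of 3.37. In ovule the 10 most abundant members made up 48.7% of a much smaller sum. The highest member reached 954 RPKM in fiber and 36.9 RPKM in ovule. At 100 RPKM or more there were 10 members in fiber and 0 in ovule.

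By number of members the family was divided. A unigene counted as measured at 1 RPKM or more in at least 1 library, which held for 68 members; the other 33 had at most 73 reads in either library. Of the 68, 20 were at least 2-fold higher in fiber and 20 at least 2-fold higher in ovule, with 28 in between. Among all 63258 measured unigenes the corresponding shares were 10.5% and 15.3%, against 29.4% in each direction for the members. The members' ratios had a median of -0.32, quartiles of -1.20 and 1.18, and extremes of -3.74 and 6.13. For all measured unigenes the median was -0.39 and the quartiles were -0.80 and 0.28. At this filter the medians were close and the members' quartiles lay further apart. With a filter at 5 RPKM the medians were 0.74 for the members and 0.06 for all unigenes. The median changes sign with the processing: it was 0.42 after rescaling both libraries to a common RPKM sum, and the mean of the members' ratios was 0.15. The ovule count was 13 under that rescaling and 36 with library totals taken without their 30 most-read unigenes, while the fiber count lay between 19 and 23 under the 4 scalings. The even split also depended on the pseudocount. With a pseudocount of 0.1, 21 members were higher in fiber and 30 in ovule, and with 5 they were 14 and 5. Shares over all unigenes at these pseudocounts are not given here.

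**Figure D1:**
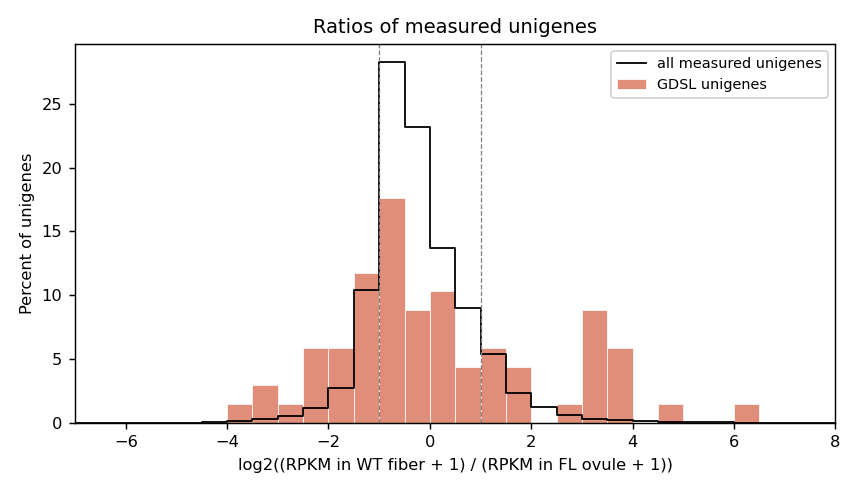
Percent of measured unigenes (vertical axis) by log2 ratio of WT fiber to FL ovule (horizontal axis), for the 68 measured GDSL unigenes (bars) and all 63258 measured unigenes (line); dashed lines mark 2-fold. The GDSL ratios run from -3.74 to 6.13, with quartiles at -1.20 and 1.18, wider than the quartiles of all unigenes at -0.80 and 0.28, although single unigenes outside the family lie further out.

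Abundant members were more often higher in fiber and scarce ones more often higher in ovule, a difference that was not tested. Of the 24 members at 10 RPKM or more in at least 1 library, 15 were at least 2-fold higher in fiber (62.5%) and 5 in ovule (20.8%). Unigenes of that abundance in general were at least 2-fold higher in fiber in 26.9% of cases and in ovule in 16.9%. Of the 44 measured members below 10 RPKM in both libraries, 5 were at least 2-fold higher in fiber and 15 in ovule, or 11.4% and 34.1%. The background at that level was 6.70% and 15.0%. The median ratio was 2.87 for the abundant members and -0.82 for the scarce ones, beside 0.26 and -0.46 for all unigenes of the same abundance. Members below 10 RPKM summed to 85.4 RPKM in fiber and 138 RPKM in ovule, the opposite order of the family sum. The splits depended on the scaling. With a common RPKM sum the abundant members numbered 17 and 5 (68% and 20%, against 49.5% and 8.08% of all unigenes of that abundance), and the scarce ones 6 and 8. With library totals taken without the 30 most-read unigenes they numbered 14 and 9 (50% and 32.1%, against 16.1% and 28.6%), and the scarce ones 5 and 27. With 1 unigene per annotation text the abundant split was 7 and 2 and the scarce one 3 and 6. Abundance was read from the same 2 libraries as the ratio, so these counts describe the libraries and are no test.

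**Figure D2:**
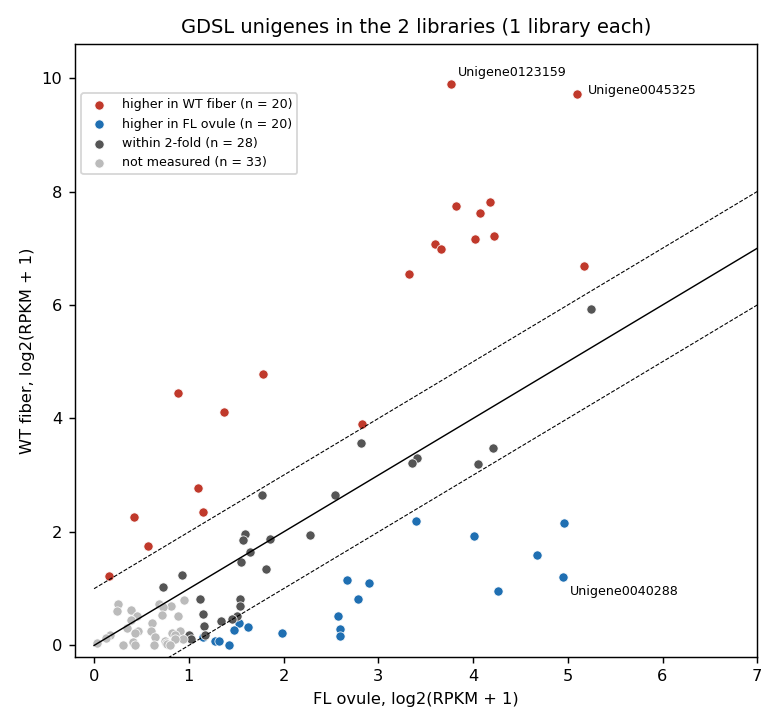
Level of each of the 101 GDSL unigenes in FL ovule (horizontal axis) and WT fiber (vertical axis), both as log2(RPKM + 1), 1 point per unigene, coloured by call; the solid line marks equal levels and the dashed lines 2-fold. The points far above the upper dashed line are abundant unigenes higher in WT fiber, and most points below the lower dashed line lie near the bottom of the plot.

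The 2 most abundant members carried the same general text, GDSL-like Lipase/Acylhydrolase superfamily protein, taken from cacao. Unigene0123159, of 1520 bases, had 66174 reads and 954 RPKM in fiber and 1022 reads and 12.6 RPKM in ovule. It was 75.8-fold higher in fiber (71.2 to 80.7), and it ranked 70th of all unigenes there by RPKM and 7511th in ovule. Unigene0045325, of 1464 bases, had 838 RPKM in fiber and 33.3 RPKM in ovule, a 25.2-fold difference (24.2 to 26.2). It was among the 5 most abundant members of both libraries, so it was high in ovule for a GDSL unigene and far higher in fiber.

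A second tier of members lay between 92.5 and 225 RPKM in fiber and between 8.99 and 17.6 RPKM in ovule. Unigene0137622 had 225 RPKM in fiber and 17.1 in ovule and was 13.2-fold higher in fiber (12.2 to 14.2). Unigene0117480, whose text is a GDSL-motif lipase/hydrolase family protein of Arabidopsis lyrata, had 214 and 13.1 RPKM, a 16.3-fold difference (15.3 to 17.4). The tier held 6 further unigenes with the general text or with that of At5g45950, an Arabidopsis locus code. Unigene0018387 had 134 and 11.2 RPKM, a log2 ratio of 3.47 in favour of fiber. Unigene0071820 had 92.5 and 8.99 RPKM and was 10.3-fold higher. The consecutive unigenes Unigene0044450 and Unigene0044451, both short at 380 and 303 bases, had 149 and 126 RPKM in fiber and 17.6 and 11.6 RPKM in ovule, with folds of 8.42 and 10.8. Unigene0007194 and Unigene0007195, annotated as isoforms 1 and 2 of At5g45950-like, had 196 and 143 RPKM in fiber against 15.8 and 15.2 RPKM in ovule, and were 12.4-fold and 9.37-fold higher in fiber. The 8 unigenes of this tier had folds from 8.42 to 16.3 and were at 8.99 RPKM or more in ovule as well. The tier was also bounded by ovule level, which left out Unigene0058145, at 102 RPKM in fiber, 35.0 RPKM in ovule and a 2.91-fold difference.

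Other members towards fiber were less abundant, apart from Unigene0058145. Unigene0042546 had 20.7 RPKM in fiber and 0.844 RPKM in ovule, and its 24.6-fold difference (18.7 to 32.9) rested on 54 reads in ovule. Unigene0070812, with the text At1g28590-like, had 26.6 and 2.43 RPKM and was 10.9-fold higher in fiber. Both were scarce in ovule, unlike the 2 leading tiers. Unigene0058145, with the text At5g14450-like, was abundant in both libraries, at 102 RPKM in fiber and 35.0 RPKM in ovule, and 2.91-fold higher in fiber (2.79 to 3.05). Unigene0066354 lay just past the line, at 13.9 and 6.08 RPKM, and fell within 2-fold with library totals taken without the 30 most-read unigenes (a log2 ratio of 0.77), with median ratio scaling (0.94) and with a pseudocount of 5 (0.77). Its direction stayed the same under each.

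**Figure D3:**
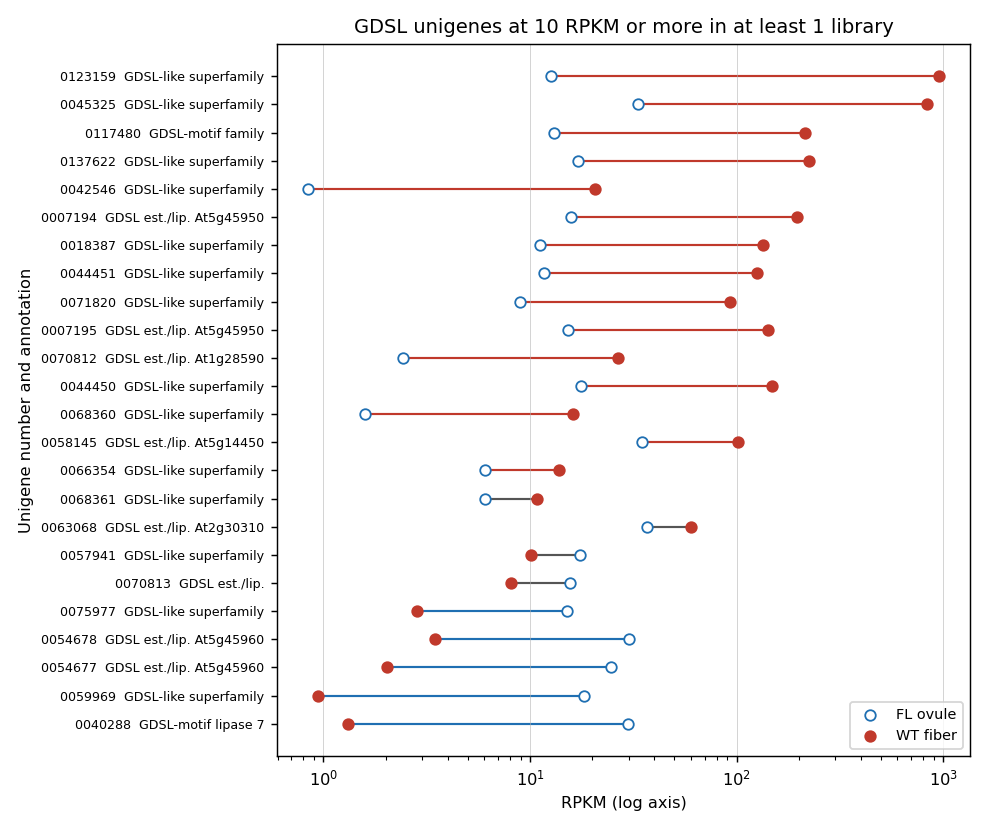
RPKM on a log axis (horizontal) of the 24 GDSL unigenes at 10 RPKM or more in at least 1 library, ordered by ratio (vertical axis, unigene number and annotation); filled points are WT fiber, open points FL ovule, and each line joins the 2 libraries of 1 unigene. The open points stay at or below 36.9 RPKM, while 10 filled points lie above 100 RPKM.

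At 10 RPKM or more, 5 members went towards ovule, and 3 of them had texts not met among the leading fiber members. Unigene0040288 was annotated as GDSL-motif lipase 7, and had 73 reads and 1.31 RPKM in fiber against 1942 reads and 29.8 RPKM in ovule. It was 22.7-fold higher in ovule (18.0 to 29.1). Unigene0054678 and Unigene0054677, both with the text At5g45960, had 30.2 and 24.5 RPKM in ovule against 3.45 and 2.03 RPKM in fiber, and were 8.75-fold (7.52 to 10.2) and 12.1-fold (9.84 to 15.1) higher in ovule. The text of this pair names the locus next in number to that of the pair Unigene0007194 and Unigene0007195, which went towards fiber. Unigene0059969 had 18.2 RPKM in ovule and 0.938 in fiber, a 19.4-fold difference (14.9 to 25.7). Unigene0075977 had 15.2 and 2.83 RPKM and was 5.36-fold higher in ovule (4.61 to 6.26). Both of these carried the same general cacao text as the fiber-abundant members, with an isoform number for Unigene0059969. At 30.2 RPKM or less, the members towards ovule were far below the leading fiber members in level, although the median fold was 11.3 among members called towards ovule, leaving out the one with 0 reads in fiber, and 10.9 among those called towards fiber.

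The ovule also had many members at low levels that were lower still in fiber. Of the 20 members at least 2-fold higher in ovule, 13 were below 1 RPKM in fiber. Of the 20 at least 2-fold higher in fiber, 4 were below 1 RPKM in ovule. The 2 sets differed in level, since 15 of the former and 5 of the latter were below 10 RPKM in both libraries. The matching shares over all unigenes were not computed, so these counts are not read as a trait of the family. Unigene0050632 had 7 reads in fiber and 341 reads in ovule, or 0.122 and 5.06 RPKM, a ratio of 41.6 with an interval of 20.0 to 104. Unigene0048136 had 12 and 315 reads and was 22.4-fold higher in ovule (12.7 to 43.9). Unigene0054415 had 23 and 303 reads and was 11.3-fold higher (7.36 to 18.0). All 3 carried the general cacao text, the text of the 2 leading fiber members. Unigene0061031, with the text At5g08460, had 0.770 RPKM in fiber and 5.91 in ovule, and Unigene0061967, with the text At5g45670, had 1.14 and 6.45 RPKM. They were 7.67-fold and 5.64-fold higher in ovule. The 5 members absent from the fiber table were taken to have 0 reads there, a value that leaves room for as many as 3 reads (0.0658 RPKM on 1 kb). The one with the most reads in ovule, Unigene0065601 with the text At1g09390-like, had 47 reads in ovule and was at least 13.4-fold higher there, computed against 3 reads in fiber.

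Some texts name an Arabidopsis gene with a described role, and the following were chosen after their values had been seen. GLIP1, written as GDSL esterase/lipase 1, is a secreted lipase of Arabidopsis that acts in resistance to a fungus. Its unigenes Unigene0024739 and Unigene0024740 had 1 and 2 reads in fiber and 28 and 32 reads in ovule, or 1.42 and 1.04 RPKM there. GDSL-motif lipase 2 (Unigene0010267), the text of a defence-related Arabidopsis gene, had 2 and 28 reads. By the ratio with its pseudocount, Unigene0024739 and Unigene0010267 were past 2-fold towards ovule, and Unigene0024740 was within it at a log2 ratio of -0.92. Unigene0024740 was still 13.7-fold higher in ovule without the pseudocount (3.49 to 118), resting on 2 reads in fiber. The locus At5g33370 is CUS2, a cutin synthase of Arabidopsis, and its unigenes Unigene0021787 and Unigene0009311 had 0.131 and 0.0565 RPKM in fiber and 0.810 and 0.676 RPKM in ovule, below the limit for being measured in both libraries. These are only the unigenes whose text names that locus, so they do not give the level of cutin synthases as a class.

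Some members lay within 2-fold. Unigene0063068, with the text At2g30310-like, had 60.3 RPKM in fiber and 36.9 RPKM in ovule, and was the most abundant member of ovule. The difference was 1.63-fold (1.55 to 1.73). The consecutive pair Unigene0060953 and Unigene0060954, with the text At1g71691-like, had 8.88 and 8.28 RPKM in fiber and 9.63 and 9.23 RPKM in ovule. The 3 unigenes with the text At1g28580 had ratios between 0.02 and 0.87 on the log2 scale. Unigene0068361, Unigene0057941 and Unigene0070813 were the remaining members within 2-fold at 10 RPKM or more, with log2 ratios of 0.74, -0.73 and -0.86. Each of these 4 abundant members passed 2-fold under 1 scaling: with a common RPKM sum Unigene0063068 was at 1.30 and Unigene0068361 at 1.29, and with library totals without the 30 most-read unigenes Unigene0057941 was at -1.09 and Unigene0070813 at -1.22. The 2-fold line was crowded, with 11 members within 0.15 of it on the log2 scale. On the ovule side Unigene0010267 at -1.01 was just past it and Unigene0065017 at -0.99 just short of it. On the fiber side the nearest were Unigene0009563 at 1.07 and Unigene0045739 at 0.87.

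The general cacao text covered 43 members once isoform numbers were removed, 31 of them measured. Of these, 12 were at least 2-fold higher in fiber, 10 in ovule and 9 in between, with log2 ratios from -3.31 to 6.13. Unigenes with this text thus lay on both sides. Texts with an Arabidopsis locus were carried by 40 members. By call, only At5g45950, At5g55050 and At5g45960 had more than 1 unigene past 2-fold, so calls could not show both directions for the other loci. Without the pseudocount, the measured unigenes of At4g10955 went both ways. Unigene0050501 was 4.85-fold higher in fiber (2.08 to 13.1), with 7 reads in ovule. Unigene0065017 was 4.27-fold higher in ovule (2.06 to 9.94), with 9 reads in fiber. Fiber was higher for both unigenes of At5g45950 and both measured unigenes of At5g55050, and ovule for both of At5g45960. The unigenes of At5g45950 and of At5g45960 have consecutive numbers and can belong to 1 gene, so their shared direction is no separate result.

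Unigenes with consecutive numbers were also compared, since neighbours in number often shared their text; the files do not say what the numbering means, and neighbours can be pieces, isoforms or homoeologous copies of 1 gene. The members formed 21 runs of 2 to 4 consecutive numbers, which held 52 members, and 14 runs had a single text apart from isoform and source. In 13 runs at least 2 members were measured. In 6 of them every measured member had the same call, which in the runs from Unigene0032250, Unigene0060953 and Unigene0085543 was within 2-fold. In 0 were members called past 2-fold both ways. By call, only the runs from Unigene0007194, Unigene0044450, Unigene0054677 and Unigene0068360 had more than 1 member past 2-fold. Calls could therefore not show both directions for the others. Without the pseudocount, the run from Unigene0066353 went both ways. Unigene0066353 was 3.09-fold higher in ovule (2.20 to 4.42) and Unigene0066354 was 2.28-fold higher in fiber (2.08 to 2.51). Runs of all unigenes were not counted in this way. The spread of log2 ratios within a run ranged from 0.04 to 3.86, with a median of 0.43. The widest run was that of Unigene0070811, Unigene0070812 and Unigene0070813. Unigene0070812 was 10.9-fold higher in fiber, Unigene0070811 had 5.29 and 4.82 RPKM, and Unigene0070813 had 8.13 RPKM in fiber and 15.5 in ovule. In the run of 4 from Unigene0068360 to Unigene0068363, the first and last were 10.2-fold and 5.10-fold higher in fiber and the other two were within 2-fold. The counts are of unique reads per the file headers, so near-identical copies can lose reads, and values of single unigenes in these runs are uncertain. With 1 unigene per run, the one with the most reads, 17 members were at least 2-fold higher in fiber and 16 in ovule of 52 measured.

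**Figure D4:**
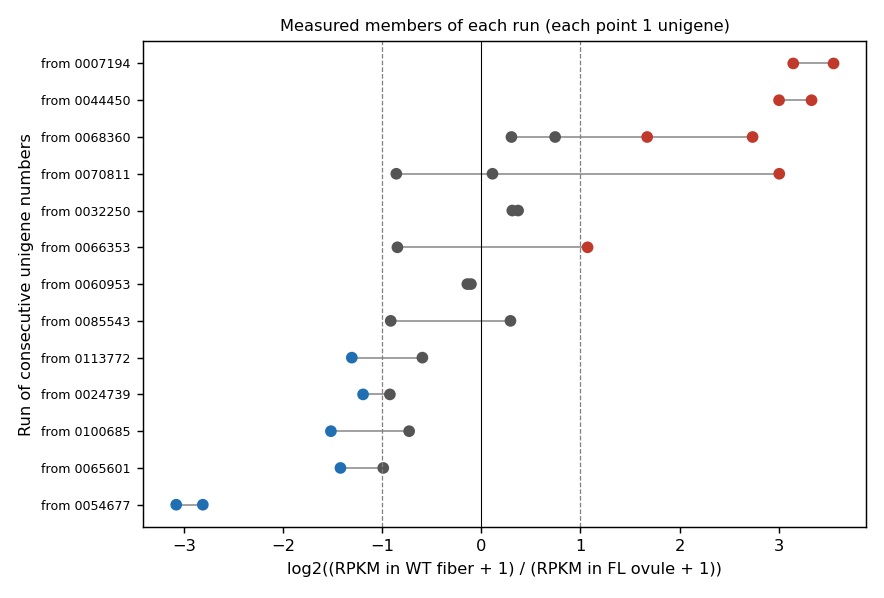
Log2 ratio of WT fiber to FL ovule (horizontal axis) of the measured members in each of the 13 runs of consecutive unigene numbers with at least 2 measured members (vertical axis, first number of the run); red points are at least 2-fold higher in WT fiber, blue in FL ovule, grey in between. Colours follow the ratio with its pseudocount. In 0 runs do red and blue points occur together, and the run that starts with Unigene0070811 spans the widest range, 3.86.

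Length and functional terms were not used to choose the members. The members were 201 to 2567 bases long, with a median of 1135 against 504 for all unigenes. Among 45 measured members of 1000 bases or more, 14 were at least 2-fold higher in each direction. Of 14 measured members under 500 bases, 5 were higher in fiber and 3 in ovule. Shares for all unigenes of these lengths were not computed. A gene ontology function of hydrolase or lipase activity was attached to 34 members and no term at all to 67. The 34 were shorter, with a median of 432.5 bases against 1287, and the leading fiber members had no term apart from Unigene0007194 and Unigene0007195, which had the hydrolase one. An extracellular term was attached to 2 members, Unigene0032250 and Unigene0032251, which had 1.37 and 2.91 RPKM in fiber and 0.906 and 2.02 in ovule.

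Enzymes related by chemistry or pathway were described in the same way, beside the shares of 10.5% and 15.3% for all measured unigenes. Unigenes of the same superfamily that lack the word GDSL, with SGNH hydrolase or Li-tolerant lipase texts, numbered 19. They summed to 82.1 RPKM in fiber and 88.9 RPKM in ovule, and of 13 measured, 3 were at least 2-fold higher in each library. This set was added after the values had been seen. Its most abundant member in fiber, Li-tolerant lipase 1, had 29.3 RPKM there, far below the leading GDSL members. It had 22.7 RPKM in ovule, a log2 ratio of 0.36.

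The list for cutin, suberin and wax had 37 measured unigenes, of which 6 were at least 2-fold higher in fiber and 8 in ovule, with a median ratio of -0.17. The list summed to 438 RPKM in fiber and 260 in ovule, with 38.8% of the fiber sum in 1 unigene. Its pattern also took in acyltransferases and acyl-CoA synthetases of general lipid synthesis. The first by size, Unigene0031171, was such a case, a 1-acyl-sn-glycerol-3-phosphate acyltransferase of membrane lipid synthesis with 50.5 RPKM in fiber and 5 reads in ovule. Glycerol-3-phosphate acyltransferase 2 (Unigene0089392) had 170 and 3.97 RPKM and was 42.8-fold higher in fiber. CER1 (Unigene0144181), which forms wax alkanes, was 13.5-fold higher in ovule, at 9.15 against 0.676 RPKM. Some classes within the list were picked after the values had been seen. Cytochrome P450 77A texts, of enzymes that oxidise cutin acids, summed to 29.4 RPKM in fiber and 64.4 in ovule, with 3 of 4 measured at least 2-fold higher in ovule. Cytochrome P450 86A texts, of enzymes that hydroxylate cutin acids, summed to 0.235 and 4.12 RPKM, with 1 of 2 measured past 2-fold towards ovule. CER1 texts summed to 0.965 and 10.4 RPKM, also with 1 of 2 towards ovule. Glycerol-3-phosphate acyltransferase 6, which links cutin acids to glycerol, summed to 24.2 and 15.9 RPKM, with 1 of 5 measured towards fiber. Of 6 unigenes with the text HOTHEAD, an oxidase needed for cutin acids, 0 were measured. The remaining classes had the larger sum in fiber. Long-chain acyl-CoA synthetase texts summed to 139 and 129 RPKM, with 1 of 13 measured towards fiber and 0 towards ovule. Texts of 1-acyl-sn-glycerol-3-phosphate acyltransferase summed to 62.6 and 21.5 RPKM, with 2 and 1 of 4. Glycerol-3-phosphate acyltransferase 5 summed to 2.67 and 1.84 RPKM, with 1 and 1 of 2.

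Genes for wall acetylation and deacetylation were divided as well, with 17 of 67 at least 2-fold higher in fiber and 16 in ovule. The 3 with the largest ratios were TRICHOME BIREFRINGENCE-like unigenes, of a family of wall polysaccharide acetyltransferases, and all 3 were higher in fiber. Unigene0090017 (type 33) had 70.3 RPKM in fiber and 0.460 in ovule, a 153-fold difference (112 to 215). Unigene0137711 (type 28) and Unigene0082275 (type 23) were 26.4-fold and 12.7-fold higher in fiber. Summed RPKM over the whole list was 723 in fiber and 469 in ovule.

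Other esterases and lipases were set beside the GDSL sum of 3436 and 534 RPKM. Lipases without a GDSL text summed to 324 RPKM in fiber and 482 in ovule, with 8 of 61 at least 2-fold higher in fiber and 9 in ovule. A monoglyceride lipase-like unigene (Unigene0120528), of a class that cleaves the last fatty acid from glycerol, had 64.0 RPKM in fiber and 4 reads in ovule, and Unigene0066710, annotated as lipase, was 6.61-fold higher in ovule at 131 RPKM. A patatin-like acyl hydrolase (Unigene0076147) was 6.51-fold higher in ovule. Phospholipases summed to 696 and 652 RPKM, with 13 and 11 of 117 past 2-fold. Non-specific phospholipase C3, which cleaves membrane lipids, was 6.81-fold and 6.82-fold higher in fiber in Unigene0045639 and Unigene0045638, and a phospholipase D delta (Unigene0104700) 5.35-fold higher in ovule. Carboxylesterases and methyl esterases summed to 161 and 166 RPKM, with 2 and 8 of 21 past 2-fold. Methylesterase 10-like (Unigene0036000), CXE carboxylesterase (Unigene0070220) and methyl esterase 11 (Unigene0072739) were 30.8-fold, 2.95-fold and 2.60-fold higher in ovule.

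**Figure D5:**
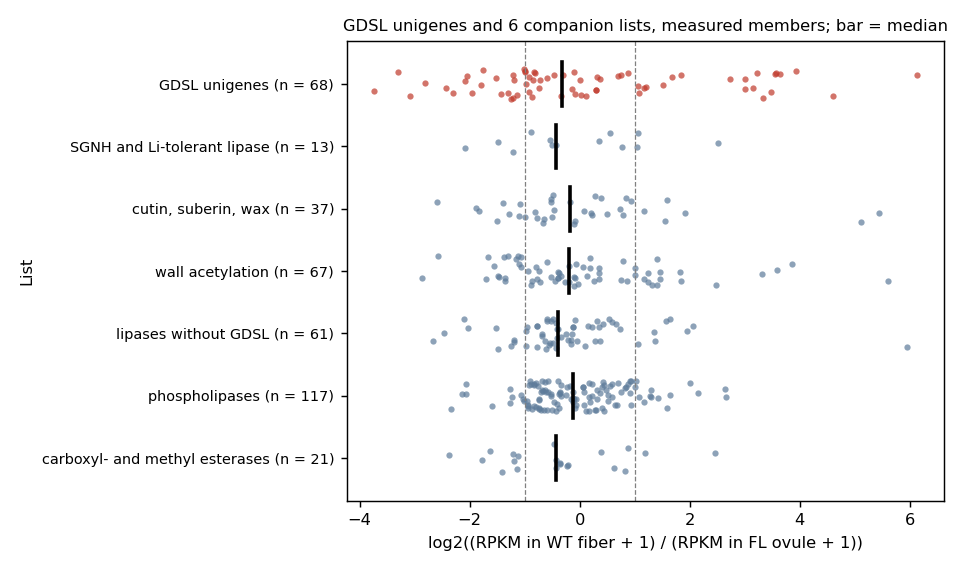
Log2 ratio of WT fiber to FL ovule (horizontal axis) of measured unigenes in the GDSL family and 6 companion lists (vertical axis), 1 point per unigene with vertical jitter for legibility; the black bar is the median and the dashed lines mark 2-fold. The medians lie between -0.43 and -0.13, and the GDSL row reaches from -3.74 to 6.13.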

How the data were processed

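RNA of 2 libraries, 1 per group, was sequenced on an Illumina instrument; per the labels' protocols, RNA was enriched by oligo-(dT) in one portion and depleted of ribosomal RNA in another, and which portion gave each table is not given in the sources used here. The authors deposited, for each library, unique read counts per unigene with its length, and the library total in the file headers. The authors also deposited RPKM, the counts scaled by unigene length and by those totals, and a coverage value per unigene, used here as deposited to describe members. Bowtie and Bowtie2 are named in the submitters' processing notes; for their roles, the assembler and the annotation database the status is: not given in the sources used here. The tables were joined on the unigene name, and an absent unigene was taken as 0 reads. Of the 101 member names, 0 matched the reference gene table, so no genome position is given.

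A unigene was measured at 1 RPKM or more in at least 1 library, and log2 ratios used a pseudocount of 1 RPKM. Intervals are exact 95% Clopper-Pearson intervals of the 2 counts, tested on simulated data. With 1 library per group there was no test and no p-value. Members named were, at 10 RPKM or more, the 12 with the largest ratio past 2-fold in each direction, the 5 most abundant of each library and the 5 nearest to a ratio of 0, plus the 3 with the largest ratio at 5 RPKM or more of each companion list; scarce members, members grouped by text and marker subsets were chosen after their values were seen. The members and lists were chosen with earlier results of these data known. Columns left without a sample numbered 0. Python 3.11.15, numpy 2.4.6, pandas 2.3.3, scipy 1.17.1 and matplotlib 3.10.9 were used.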

Additional observations from a re-analysis of the deposited data

How the results depend on the processing

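With 1 library per group no replicate could be left out. No paired analysis was possible because each group has 1 library. Of 114 alternative log2 ratios of the 19 named members past 2-fold, 0 changed sign and 3 fell within 2-fold, all of Unigene0066354. Each of the 4 named members within 2-fold passed it under 1 of the scalings. The median ratio of the members, -0.32 as reported, was -0.50 and -0.14 with pseudocounts of 0.1 and 5, 0.74 with a filter at 5 RPKM, 0.42 with a common RPKM sum, -0.44 with median ratio scaling, -0.13 with upper quartile scaling, -0.83 with library totals without the 30 most-read unigenes, and 0.15 as a mean. In those 4 scalings, in the same order, the median of all measured unigenes was 0.23, -0.49, -0.29 and -0.69. The share of 2-fold differences on the WT fiber side was 50% for the members as reported, and 63.9%, 45.2%, 51.3% and 34.5% in the 4 scalings, beside 40.7% and then 74.3%, 32.8%, 47.7% and 18.3% for all unigenes. The ratio of summed RPKM, 6.43 as reported, was 9.93, 5.83, 7.01 and 5.02 in these scalings, 6.78 with unigenes of 500 bases or longer, 5.65 with the related texts added and 3.37 without the 2 most abundant members; these last 2 alternatives, and the one with 1 unigene per run, were chosen after seeing the data. Counts past the fold threshold that moved by more than 1.5 times are given by setting; stricter thresholds and filters, and 1 unigene per text, leave fewer unigenes by construction, and for the scalings the cause was not tested. With a fold threshold of 4, the counts higher in WT fiber were 13 for the family, 0 for members below 10 RPKM, 2 for cutin, suberin and wax, 2 for lipases without a GDSL text, 1 for carboxylesterases, 4 for phospholipases and 5 for wall acetylation. With a fold threshold of 4, the counts higher in FL ovule were 8 for the family, 3 for members below 10 RPKM, 1 for cutin, suberin and wax, 4 for lipases without a GDSL text, 1 for carboxylesterases, 4 for phospholipases and 2 for wall acetylation. With 1 unigene per annotation text, the counts higher in WT fiber were 10 for the family, 7 for members at 10 RPKM or more, 3 for members below 10 RPKM, 4 for lipases without a GDSL text, 5 for phospholipases and 9 for wall acetylation. With 1 unigene per annotation text, the counts higher in FL ovule were 8 for the family, 2 for members at 10 RPKM or more, 6 for members below 10 RPKM, 5 for cutin, suberin and wax, 6 for phospholipases and 7 for wall acetylation. With a pseudocount of 5, the counts higher in WT fiber were 0 for members below 10 RPKM, 3 for cutin, suberin and wax, 2 for lipases without a GDSL text, 1 for carboxylesterases, 5 for phospholipases and 9 for wall acetylation. With a pseudocount of 5, the counts higher in FL ovule were 5 for the family, 0 for members below 10 RPKM, 1 for cutin, suberin and wax, 4 for lipases without a GDSL text, 0 for carboxylesterases, 3 for phospholipases and 4 for wall acetylation. With a filter at RPKM of 5, the counts higher in WT fiber were 1 for members below 10 RPKM, 3 for lipases without a GDSL text, 1 for carboxylesterases and 8 for phospholipases. With a filter at RPKM of 5, the counts higher in FL ovule were 11 for the family, 6 for members below 10 RPKM, 4 for cutin, suberin and wax, 4 for lipases without a GDSL text, 4 for carboxylesterases, 4 for phospholipases and 5 for wall acetylation. With a common RPKM sum, the counts higher in WT fiber were 11 for cutin, suberin and wax, 4 for carboxylesterases and 26 for phospholipases. With a common RPKM sum, the counts higher in FL ovule were 13 for the family, 8 for members below 10 RPKM, 5 for cutin, suberin and wax, 4 for carboxylesterases, 5 for phospholipases and 9 for wall acetylation. With library totals without the 30 most-read unigenes, the counts higher in WT fiber were 1 for carboxylesterases. With library totals without the 30 most-read unigenes, the counts higher in FL ovule were 36 for the family, 9 for members at 10 RPKM or more, 27 for members below 10 RPKM, 14 for cutin, suberin and wax, 20 for lipases without a GDSL text, 40 for phospholipases and 26 for wall acetylation. With a pseudocount of 0.1, the counts higher in WT fiber were 4 for carboxylesterases and 25 for phospholipases. With a pseudocount of 0.1, the counts higher in FL ovule were 25 for members below 10 RPKM, 23 for lipases without a GDSL text and 35 for phospholipases. With unigenes of 500 bases or longer, the counts higher in WT fiber were 3 for members below 10 RPKM and 5 for lipases without a GDSL text. With related texts added, the counts higher in WT fiber were 8 for members below 10 RPKM.

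Depth limits the scarce members: 12 had fewer than 10 reads in both libraries, and 3 reads on 1 kb correspond to 0.0658 RPKM (WT fiber) or 0.0562 RPKM (FL ovule).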

Other observations

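The 15 members with read coverage below 50% of their length in both libraries were all 1000 bases or longer, and 13 of them belonged to runs of consecutive numbers; 3 were measured. A member with 0 reads in a library was given a coverage of 0 there. Among the 33 members that were not measured, 24 had the higher RPKM in FL ovule. The matching share over all unigenes that were not measured was not computed, so this count is not read as a trait of the family.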
